A study of Mus musculus with 1507 samples.

Results

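The genes described here are the protein-coding genes of the mouse that span at least 500 kb, from the smallest start to the largest end of their annotated transcripts on mm10. By this rule 217 of 21971 protein-coding genes were long genes, with *Robo1*, *Robo2*, *Slit2* and *Slit3* set aside. The rule used gene models only and no expression value.

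The study introduced RamDA-seq, which copies RNA along its whole length from single cells with not-so-random primers and oligo-dT, so that RNA without a poly(A) tail and unspliced RNA can enter the library. All samples came from 5G6GR, a mouse embryonic stem (ES) cell line that carries a *Gata6* fusion to the glucocorticoid receptor (GR), grown without feeders in medium with LIF and serum. Dexamethasone moves the fusion protein into the nucleus, and the cells turn into primitive endoderm (PrE). The groups used here were single cells at 0, 12, 24, 48 and 72 h of dexamethasone (92, 91, 93, 87 and 93 cells), untreated ES cells sorted by cell cycle phase as G1, S and G2/M (93, 91 and 93 cells), and ES and PrE cells side by side on 4 plates named B1, B2, E1 and E2 (38 to 58 cells of a type per plate, PrE cells after 72 h of dexamethasone). They were also ES and PrE cells of 1 C1 chip (16 and 39 cells) and libraries of purified ES RNA: rRNA-depleted (rdRNA-seq) and poly(A)-selected (paRNA-seq) from 1 µg, 3 libraries each, and 10 pg libraries of RamDA-seq (3) or SMART-Seq v4 (4). Both states thus carry the transgene, and the line stands for PrE made by forced *Gata6* and not for PrE of an embryo. Each time, phase and C1 type was 1 collection of cells, so those values carry no test. The single-cell values are TPM (transcript abundance scaled by transcript length to a fixed sum per cell), which hold no depth. Libraries of purified RNA were counted from equal numbers of reads, and their estimated counts on genes summed to 5706103 to 8962533.

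The labelled states carried their markers. On the plates all 7 ES markers fell in PrE cells and 9 of 10 PrE markers rose, with *Gata6*, which the transgene also supplies, as the exception. The summed TPM of the PrE markers was 4407 to 4692 in the PrE cells of the plates and 106 to 1164 in the ES cells, where plates B1 and B2 stood apart through *Lamb1* and *Col4a1*. Neural markers summed to 19.5 to 27.2 in ES cells and to 9.65 to 11.9 in PrE cells, with *Sox1* and *Neurod1* under 0.3 in every plate mean, and mesoderm markers summed to under 0.5. The sum of the trophoblast markers went up, from 2.36 to 3.13 in ES cells to 4.29 to 4.93 in PrE cells, with 1 of 4 called higher. Among them *Eomes* was at 0.313 to 0.370 TPM in ES cells and 1.55 to 2.18 TPM in PrE cells.

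Long genes owe their span to introns. In most tissues outside the brain few of them are active, and many encode adhesion molecules, receptors and scaffolds of neurons, or lie at sites where chromosomes break under replication stress. RNA polymerase needs hours to cross such a gene, exons are joined while transcription goes on, and long introns can be removed in steps, which is known as recursive splicing. Introns of RNA that is still being made are present in total RNA and largely absent from poly(A)-selected RNA.

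The 217 genes spanned a median of 734267 bases (501751 to 4434881), against 16686 for all protein-coding genes, and 57 of them spanned at least 1 Mb. Their longest mRNA had a median of 5588 bases, or 0.728% of the span. The median longest intron was 272276 bases, against 6028 for all protein-coding genes, and 93 long genes held an intron of at least 300 kb. The median number of exons was 17 (7 for all protein-coding genes). The 8 longest were *Gm20388* (chr8:119910841-124345722), *Fgfr2* (chr7:130162451-133123350), *Ptprd*, *Dmd*, *Cntnap2*, *Lsamp*, *Lrp1b* and *Macrod2*. Annotation set some of these spans: *Gm20388* has 1 isoform whose exons all belong to *Galnt2* or *Usp10* as well, and 7 long genes, *Chd1* and *Syne1* among them, have no isoform that itself spans 500 kb. For 7 of the 217, at least 10% of the exon bases were shared with another gene of the same strand, so that reads could be split between them, and 3 of these were tested on the plates (*Gm20388*, *Gm37240* and *Schip1*). Just inside the rule lay *Edil3* (501751 bases), *Dock1* (502952) and *Car10* (503721), and just outside *Pde1c* (499299), *Dnm3* (495581) and *Cacna1e* (493770). Their mean TPM in the time course were 0.222, 15.3 and 0.176 inside and 0.641, 2.41 and 0.325 outside.

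The join across the longest intron shows what splicing has to bring together in the genes whose values are described most below. Each line gives the last 15 bases of the exon before the intron in lower case and the first 15 bases of the exon after it in capitals, read 5′ to 3′ on the gene's strand from the GENCODE vM21 transcript of the same version, and the position of the intron is on mm10.
*Nrg1*, intron 1 of 915330 bases at chr8:31968186-32883515: tgtgcaagcggtgcgCATTGCCTCCCAGAT
*Frmd4a*, intron 2 of 412616 bases at chr2:4018583-4431198: ctcagcctgctgatgATGACGGAGGGCCGT
*Arhgap6*, intron 1 of 423386 bases at chrX:168796812-169220197: gtgtggaggtccgagGGTGACTTCACCTGG
*Kcnq5*, intron 1 of 367566 bases at chr1:21593615-21961180: ctaccacgcgttcgtTTTTCTCCTTGTGTT
*Tenm4*, intron 1 of 183862 bases at chr7:96171494-96355355: agacctgacttctggATGGACAGTCTGAGG
*Adarb2*, intron 1 of 355783 bases at chr13:8203321-8559103: ggtccaagaggaaagACAAAGTCAGCATAC
*Magi1*, intron 1 of 339689 bases at chr6:93943321-94283009: aagccgtcagacaagGAGGAAGGCTCAACA
*Immp2l*, intron 4 of 517820 bases at chr12:41110944-41628763: cattgtgtcattggtGTCTCCTAAAAACCC
In 6 of these 8 genes the longest intron was the first, so the 2 exons it separates lie at the start of the mRNA.

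Most long genes were low in these cells. In the time course 49 of the 217 stayed under 0.1 TPM at every time, 2 were at 0 in all cells, 77 reached a mean of 1 TPM over the 5 times and 22 reached 10 TPM. Among all protein-coding genes, the share with a mean of at least 1 TPM was 35.1% for spans under 10 kb, 63.99% from 10 to 100 kb, 64.6% from 100 to 300 kb, 47.7% from 300 to 500 kb, 37.5% from 500 kb to 1 Mb and 29.8% from 1 Mb up. Among the 8 longest, *Lsamp*, a neural adhesion molecule of the immunoglobulin family, was at 0.0257 TPM, and *Lrp1b*, a lipoprotein receptor, at 0.247. The highest means were those of *Etl4* (59.6 TPM), *Exoc4* (55.9), *Chd1* (36.8), *Fgfr2* (35.6), *Pard3* (34.3), *Nrg1* (34.3), *Gm20388* (33.4) and *Frmd4a* (30.2). *Exoc4* encodes a subunit of the exocyst, which tethers secretory vesicles, *Chd1* a chromatin remodeller and *Pard3* a scaffold of cell polarity. All 217 together held 0.0703% of TPM at 0 h and 0.0875% at 72 h.

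The plates asked which genes differ between ES and PrE cells. Of the 217 long genes, 83 had a mean of at least 1 TPM over the 8 plate means and were tested, and 134 did not. With limma on log2(plate mean TPM + 1) and Benjamini-Hochberg adjustment over all genes, 36 rose in PrE cells (43.4% of those tested, against 34.7% of all 16202 genes tested), 31 fell (37.3% against 24.4%) and 16 did not pass the test. For protein-coding genes of any span the shares were 40.6% and 24.4%. With a change of at least 2-fold and no overlap of the plates, 27 long genes were higher (15.9% of all genes) and 18 lower (10.0% of all genes). For 64 of the 83 the plates of the types did not overlap at all (56.1% of all genes). The median size of the log2 change was 1.08 among the 83 and 0.54 among all genes. These counts need care, because 18 long genes reached 1 TPM in PrE cells alone (17 rose) and 7 in ES cells alone (7 fell), so that the filter favoured genes that differ. Of the 58 with at least 1 TPM in both types, 19 rose (32.8%, against 33.8% of all 13890 such genes), 24 fell (41.4% against 22%) and 15 did not pass. All 8 plate means came from 1 line, and nothing says that the plates held separate cultures, so p-values measure the spread between plates, which may be technical. On plates E1 and E2 alone, where ES cells held few PrE markers, 36 rose and 28 fell, and 62 of the 67 genes remained called.

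The largest rise was that of *Nrg1*, and other ligands and receptors rose as well. *Nrg1*, which encodes neuregulin 1, a ligand of ErbB receptors, read 1.86, 1.47, 1.81 and 1.93 TPM in the ES cells of plates B1, B2, E1 and E2 and 59.6, 69.7, 71.5 and 65.4 TPM in the PrE cells. The types lay far apart on every plate (log2 change 4.61 ± 0.09 SE, adjusted p = 3.4e-09, limma). *Fgfr2*, a receptor of fibroblast growth factors, read 0.98, 0.96, 1.05 and 1.86 TPM in ES cells and 18.8, 18.2, 19.4 and 14.4 TPM in PrE cells, again with no overlap (log2 change 3.09 ± 0.15, adjusted p = 3.4e-07, limma). *Gpc6*, a glypican, that is a heparan sulfate proteoglycan held on the cell surface by a lipid anchor, was 0.78 to 0.93 TPM in ES cells and 11.6 to 12.3 TPM in PrE cells (log2 change 2.79 ± 0.07). *Sema6d*, a membrane-bound semaphorin that binds plexins, went from 0.0896 to 0.231 TPM up to 7.73 to 9.13 TPM (3.05 ± 0.09). The receptor tyrosine phosphatases *Ptprm* (2.99 ± 0.11) and *Ptprt* (2.03 ± 0.18) also rose, from under 0.5 TPM in every ES plate mean.

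The next largest rises, from *Frmd4a* to *Kcnq5*, came from genes of other roles. *Frmd4a*, a FERM domain scaffold that binds the polarity protein Par3, read 5.34, 4.92, 6.34 and 6.18 TPM in ES cells and 124.9, 93.8, 93.3 and 97.5 TPM in PrE cells (log2 change 3.94 ± 0.12, adjusted p = 2.4e-08, limma). *Arhgap6* was 0.22, 0.12, 0.25 and 0.18 TPM in ES cells and 15.1, 15.1, 16.8 and 16.3 TPM in PrE cells (3.82 ± 0.08). *Kcnq5*, a voltage-gated potassium channel, was 0.23, 0.25, 0.41 and 0.43 TPM and then 12.0, 13.3, 15.3 and 15.1 TPM (3.48 ± 0.11). For both genes the ES means were below 0.5 TPM, so the pseudocount of 1 understates the change, and with a pseudocount of 0.1 the log2 changes were 5.79 and 5.05. *Ccser1* rose from 0.13 to 0.29 TPM up to 9.97 to 18.5 TPM (3.59 ± 0.17). *Ryr2*, the calcium release channel of the endoplasmic reticulum, rose from 1.10 to 1.66 TPM up to 9.84, 11.8, 25.4 and 10.5 TPM (2.61 ± 0.27). *Anks1b*, an ankyrin repeat protein known from synapses, rose by 2.12 ± 0.20. *Pde4d*, a cyclic AMP phosphodiesterase, read 15.5 to 18.3 TPM in ES cells and 42.1, 373.5, 51.9 and 47.9 TPM in PrE cells. Its log2 change was 2.15 ± 0.63 (adjusted p = 0.016, limma) and 1.41 without the PrE cells of plate B2, where 1 cell of 15107 TPM held 86.1% of the sum.

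Among the genes that fell were neural adhesion molecules and regulators known from ES cells. *Tenm4*, a teneurin, which is a large transmembrane protein of cell adhesion, read 47.2, 40.3, 42.8 and 35.99 TPM in ES cells and 1.21, 0.55, 1.13 and 1.47 TPM in PrE cells (log2 change -4.36 ± 0.15, adjusted p = 5e-08, limma). Its relative *Tenm3* fell less, from 8.90 to 10.7 TPM down to 3.03 to 3.51 TPM (-1.27 ± 0.09). *Adarb2*, an RNA-binding protein of the adenosine deaminase family without known editing activity, was 24.5 to 30.1 TPM in ES cells and 0.38 to 0.61 TPM in PrE cells (-4.29 ± 0.10). *Enox1*, an oxidase of the plasma membrane, was 10.2 to 13.2 TPM and then 0.13 to 0.22 TPM (-3.41 ± 0.10). *Foxp1*, a forkhead transcription factor with an isoform specific to ES cells, was 10.1 to 13.4 TPM and then 0 to 0.67 TPM (-3.34 ± 0.18). For these 4 leading genes the lowest ES plate lay more than 10-fold above the highest PrE plate.

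Smaller falls touched the cytoskeleton and cell junctions. *Dmd*, which encodes dystrophin and shorter products from internal promoters, was 32.7, 31.4, 35.4 and 33.5 TPM in ES cells and 12.5, 13.3, 10.7 and 11.6 TPM in PrE cells (-1.40 ± 0.09). *Magi1*, a scaffold of tight and adherens junctions, was 15.6, 13.9, 21.6 and 17.2 TPM and then 8.003, 7.49, 6.61 and 8.06 TPM, with no overlap (-1.07 ± 0.13, adjusted p = 0.00013, limma). *Elmo1*, which activates Rac together with Dock proteins, fell by 1.86 on the log2 scale, the zinc finger gene *Zmat4* by 2.11, the histone and protein methyltransferase gene *Smyd3* by 1.38, the microtubule regulator *Nav2* by 1.31, the adhesion receptor *Adgrv1* by 1.303 and *5730522E02Rik* by 1.45. *Dock1*, the partner of Elmo1 in Rac activation, did not pass the test (log2 change -0.24, adjusted p = 0.077, and 0.034 with the plate as a block).

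**Figure D1:**
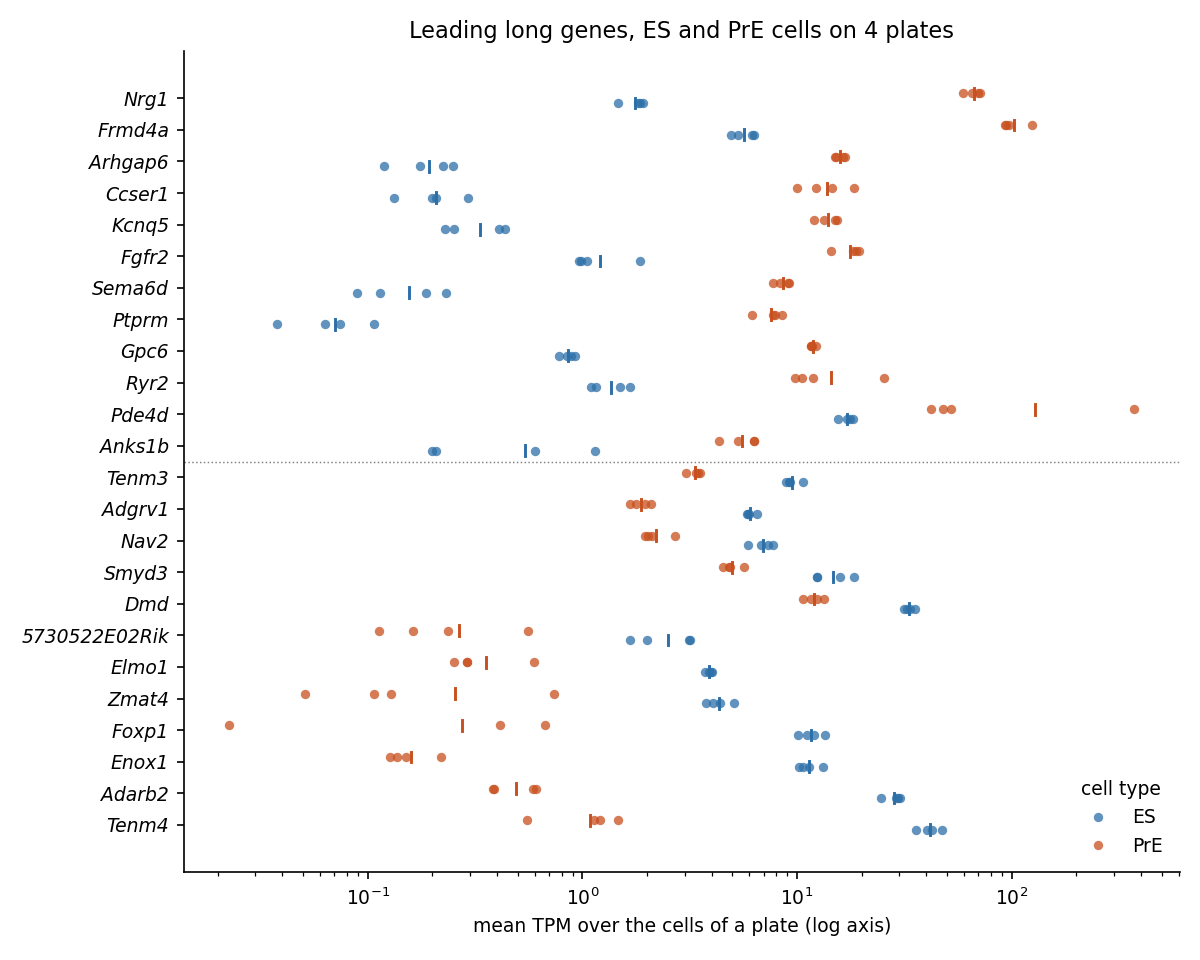
Mean TPM over the cells of a plate, on a log axis, for the 12 long genes with the largest rise (top) and the 12 with the largest fall in PrE cells. Each point is 1 plate and cell type (blue ES, orange PrE), and each tick is the mean of 4 plates. The types do not overlap for any gene shown, *Pde4d* has 1 PrE plate at 373.5 TPM, and *Foxp1* in the PrE cells of plate B1 was at 0 and is not drawn.

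By role, the lists showed no common direction. Of 41 genes of synaptic and neural cell adhesion, 9 were tested, of which *Thsd7b* rose, *Tenm3* and *Tenm4* fell and 6 did not pass the test. The 32 not tested included the contactin-associated, neurexin and LSAMP families. Of 21 junction and membrane scaffolds, 10 were tested. *Frmd4a*, *Anks1b*, *Ctnna2*, *Syne1* and *Pard3* rose, and *Dmd*, *Nav2*, *Magi1* and *Ank2* fell. *Ctnna2*, the alpha-catenin of neurons, was 0 to 0.0556 TPM in ES cells and 2.28 to 3.11 TPM in PrE cells. Of 17 transcription and RNA-binding factors, 9 were tested, with *Celf2*, *Sox6* and *Rora* higher and *Foxp1*, *Smyd3*, *Zbtb20*, *Auts2* and *Camta1* lower. The lists overlap in some genes, and their median log2 changes were -0.05, 0.12 and -0.46, against 0.09 for all genes tested.

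Kinases, phosphatases, phosphodiesterases and growth factors were the list with most rises. Of its 24 genes 15 were tested, 9 rose, 4 fell and 2 did not pass, with a median log2 change of 0.78. Of all genes tested 34.7% rose and 24.4% fell, which is the background for each list here. The rises were those of *Nrg1*, *Arhgap6*, *Fgfr2*, *Ptprm*, *Pde4d*, *Ptprt*, *Ptprg*, *Fgf13* and *Rora*, the last a nuclear receptor. *Ptprk*, *Ptprd*, *Mast4* and *Arhgap26* fell, and the fall of *Ptprd* overlapped between types and was lost with the plate as a block (adjusted p = 0.041, and 0.10 with the block). Of 21 vesicle, trafficking and organelle genes, 15 were tested, 5 rose and 8 fell. *Exoc4* rose from 32.5 to 44.8 TPM up to 352.5, 75.5, 101.7 and 79.8 TPM, and *Large*, a glycosyltransferase of dystroglycan, from 7.99 to 9.38 TPM up to 19.2 to 25.2 TPM. *Immp2l*, a peptidase of the inner mitochondrial membrane, and *Wwox*, an oxidoreductase, fell to 4.98 to 9.26 and 5.15 to 6.39 TPM. Of 27 genes at sites known for chromosome breakage, 12 were tested, with 4 higher and 7 lower and a median log2 change of -0.61. The rises there were those of *Ccser1*, *Exoc4*, *Large* and *Rora*, and the falls those of *Dmd*, *Wwox*, *Immp2l*, *Nbea*, *Auts2*, *Macrod2* and *Park2*. Of 18 ion channels and transmitter receptors only 3 were tested, *Ryr2* and *Kcnq5* (higher) and *Slc7a11*, a cystine transporter (2.71 to 3.82 TPM in ES and 3.17 to 4.36 TPM in PrE cells). Of 6 genes of extracellular matrix, proteoglycans and lipoprotein receptors, *Gpc6* alone was tested. Among 68 genes in no list, 21 were tested, with 10 higher and 8 lower. Of these, *Lpp*, a protein of focal adhesions, passed without the block (adjusted p = 0.033) and not with it (0.054), and 1 ES cell of 759 TPM held 83.1% of its sum on plate B2.

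The time course placed these changes in time. Of 77 long genes with a mean of at least 1 TPM, 26 were at least 2-fold higher at 72 h than at 0 h (13.5% of all 15961 genes counted were) and 16 at least 2-fold lower (11.7% of all genes). The filter took the mean over all times, so a gene could enter through its high times alone. As on the plates, it therefore favoured genes that differ. *Nrg1* rose early, with means of 1.24, 25.3, 58.4, 49.2 and 37.2 TPM at 0, 12, 24, 48 and 72 h. It reached 1 TPM in 37 of 92 cells at 0 h (40.2%, exact binomial 95% interval 30.1 to 50.96%, which covers counting of cells only) and in 93 of 93 at 72 h. *Kcnq5* stayed low for a day, at 0.68, 0.80 and 1.35 TPM, and then reached 8.51 and 19.9 TPM. *Arhgap6* took the same course, with 0.15, 0.36, 0.60, 5.04 and 17.3 TPM, and the share of its cells at 1 TPM was 4.35%, 12.1%, 17.2%, 85.1% and 98.9%. *Gpc6* did so too, with 0.51, 0.43, 0.89, 6.59 and 13.03 TPM.

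*Fgfr2* was the only long gene whose highest mean lay at 12, 24 or 48 h and was 2-fold over both ends (1.88% of all genes). Its means were 0.47, 55.8, 82.2, 30.99 and 8.57 TPM, and the share of cells at 1 TPM was 9.78%, 97.8%, 100%, 91.95% and 39.8%. At 72 h the top 20th of the cells held 46.03% of its TPM, against 15.4% at 24 h, so the late mean rested on few cells. Dips of at least 2-fold under both ends were seen for *Dab1*, an adaptor of reelin receptors, with 6.404, 2.40, 2.10, 3.78 and 10.5 TPM, and for *Frmd4a*, with 7.43, 2.46, 8.82, 34.7 and 97.5 TPM (0.971% of all genes dipped).

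The falls differed in pace. *Enox1* was 13.6 TPM at 0 h, 0.76 at 12 h and 0.04 at 72 h. *Foxp1* followed with 13.3, 3.16, 0.71, 0.18 and 0.25 TPM. *Tenm4* (34.1, 23.8, 8.27, 1.27 and 1.16 TPM) and *Adarb2* (16.0, 10.9, 4.58, 1.038 and 0.28 TPM) were slower. *Dmd* fell late, at 23.3, 13.1, 18.8 and 14.5 TPM up to 48 h and 4.99 TPM at 72 h, and so did *Lrba*, a protein of vesicle traffic, at 7.05, 7.25, 9.53, 5.40 and 2.87 TPM. *Magi1* declined step by step, at 20.1, 13.6, 11.1, 8.38 and 7.13 TPM, and was at 1 TPM or above in 100% of cells at 0 h and in 86.02% at 72 h. Some abundant genes were highest at 24 h: *Chd1* was 31.7, 40.7, 42.6, 37.6 and 31.5 TPM, and *Pard3* 25.4, 32.8, 45.3, 35.2 and 32.6 TPM.

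**Figure D2:**
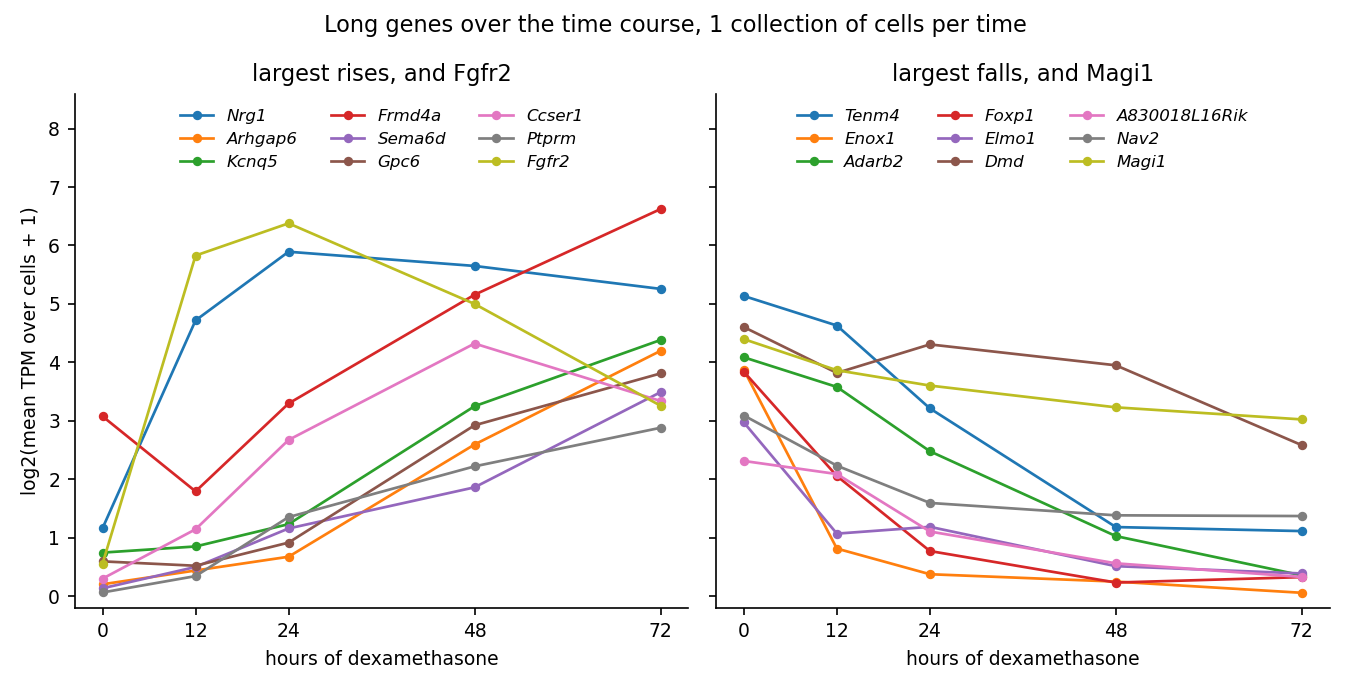
Mean TPM over the cells of a time, as log2(TPM + 1), against hours of dexamethasone, for the long genes with the largest rises and *Fgfr2* (left) and the largest falls and *Magi1* (right). Each point is 1 collection of 87 to 93 cells, without replicates. *Fgfr2* peaks at 24 h, *Kcnq5*, *Gpc6* and *Arhgap6* rise after 24 h, and *Enox1* is lowest of the falling genes from 12 to 24 h.

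Most of the rising long genes rose late, but the size of the lag depended on which genes were counted. Of the 26, 4 had passed 2-fold by 12 h (*Fgfr2*, *Nrg1*, *Kalrn* and *Celf2*), 4 first did so at 24 h, 14 at 48 h and 4 at 72 h. Of 1736 other protein-coding genes that rose 2-fold, 13.7%, 41.99%, 29.8% and 14.6% first did so at these times. At 24 h the long genes had made a median of 36.2% of their log2 change, and the other genes 65.2%. The nearest class lay between them: for 31 rising protein-coding genes of 300 to under 500 kb the median was 46.8%. Of these, 41.9% first passed 2-fold at 48 h. Among genes with a mean of at least 5 TPM, however, the medians at 24 h were 64.3% (15 long genes) and 67.3% (1310 others), and at 12 h 27.8% and 20.7%. With a pseudocount of 0.1 they were 50.6% and 69.6%. At 48 h the genes of at least 5 TPM stood at 83.8% and 93.6%. A late rise itself lowers the mean over the 5 times, so the limit of 5 TPM leaves out late risers. Among these were *Arhgap6* and *Gpc6*, with 11.8% and 9.98% of their change made at 24 h. These medians therefore cannot show whether the lag depends on level, and no test was run on it. For the falls, the medians at 24 h were 52.5% (16 long genes) and 46.5% (1420 others).

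**Figure D3:**
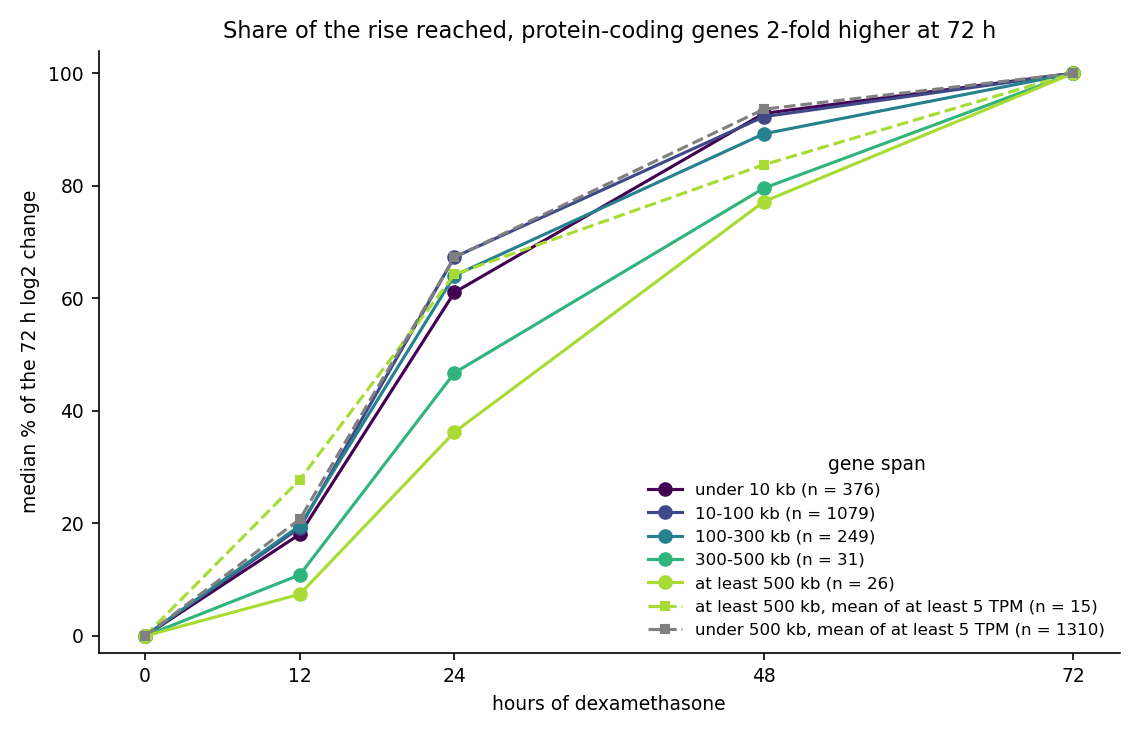
Median share of the log2 change between 0 h and 72 h that was reached at each time, against hours of dexamethasone, for protein-coding genes 2-fold higher at 72 h, by gene span (solid, mean of at least 1 TPM) and for genes with a mean of at least 5 TPM (dashed). The solid line of the long genes runs lowest, at 36.2% at 24 h, whereas the dashed lines of long and other genes lie close at 24 h, at 64.3% and 67.3%, and apart again at 48 h.

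Although the genes span over 500 kb, much of their TPM was assigned to short isoforms. Over the 77 long genes, a median of 12.0% of the TPM came from isoforms that themselves span at least 500 kb. The share was at least 90% for 11 genes, at least 50% for 19 and under 10% for 33. The isoform with most TPM spanned under 500 kb in 55 of the 77 and under 100 kb in 33, and in 34 it was not of protein-coding type. The annotation fixes some of these shares: in 9 genes, *Ryr2*, *Ptprm*, *Gpc6* and *Enox1* among them, every isoform spans 500 kb, and in 6 none does. Over the 62 genes with isoforms of both kinds the median was 11.9%. Among these, *Arhgap6* had 63.2% from long isoforms. For *Nrg1* the long isoforms held 1.55%, for *Frmd4a* 1.60%, for *Fgfr2* 2.22% and for *Dmd* 0.305%. The leading isoform of *Dmd*, Dmd-003, spans 156626 bases and was 10.9 TPM at 0 h and 1.91 TPM at 72 h, while that of *Frmd4a* is a retained-intron transcript of 230 bases, Frmd4a-008, which read 42.3 of the 97.5 TPM at 72 h. A short transcript takes a high TPM from few reads, so the TPM of such genes weighs the short forms. Counted by isoforms of 500 kb alone, 11 long genes rose and 7 fell by 2-fold between 0 h and 72 h, of 33 counted. For *Kcnq5* the long isoforms were 0.0192 TPM at 0 h and 8.42 TPM at 72 h. Those of *Arhgap6* were 0.016 and 11.47 TPM, and those of *Tenm4* 11.4 and 0.276 TPM. In *Frmd4a* and *Pde4d* the long isoforms fell while the whole gene rose, from 1.11 to 0.609 TPM and from 3.12 to 0.591 TPM.

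**Figure D4:**
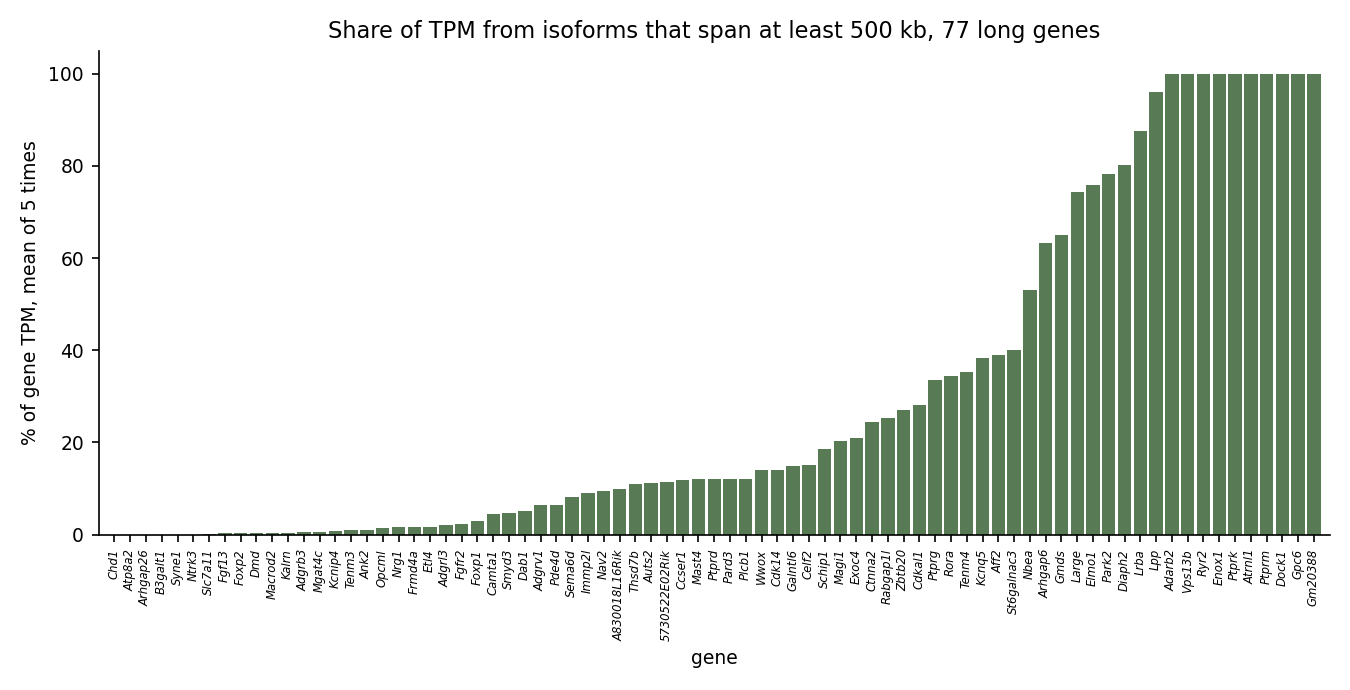
Share of each gene's TPM, averaged over 5 times, that was assigned to isoforms spanning at least 500 kb, for the 77 long genes with a mean of at least 1 TPM, in rising order. Bars start at 0. At the right 11 genes reach 90% or more, of which 9 have long isoforms only, and *Nrg1*, *Frmd4a*, *Fgfr2* and *Dmd* lie under 3%.

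RNA from inside the introns was read through transcripts that the authors assembled from their own reads. Of 42592 unannotated transcripts in the merged models, 2293 lay inside long genes, of which 1985 had 1 exon. Of these, 1618 were on the strand of the long gene by the models, 1585 of them touched no annotated exon, and these intronic pieces had a median of 753 bases and lay in 103 long genes. RamDA-seq libraries do not mark strand, so the strand of a piece is that of the model. A piece was given to a host by its position within the span alone. Where another gene of that strand shares the span, as in *Gm20388* and *Fgfr2*, a piece may lie in an intron of that gene. In purified ES RNA 989 pieces had a higher mean TPM in rdRNA-seq than in paRNA-seq and 213 a lower one. The 72 pieces of *Magi1* summed to 15.8 TPM in rdRNA-seq and 3.70 TPM in paRNA-seq, those of *Tenm4* to 49.9 and 7.89 TPM and the 85 of *Zbtb20* to 22.2 and 1.77 TPM. Those of *Lpp* (31.1 and 108.5 TPM) and *Chd1* (52.3 and 99.3 TPM) lay the other way.

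The intronic pieces of *Arhgap6* and *Kcnq5* stood out by number. *Arhgap6* held 235 between 2.71 and 391 kb from its start, over much of the length of its first intron. Their summed TPM was 160.5, 212.1, 346.3, 1760 and 5470 at 0, 12, 24, 48 and 72 h. The host's own transcripts were at 0.0988 and 8.86 TPM at 0 h and 72 h in the same models. An RNA that runs through the intron adds to many pieces, each scaled by its own length. The sum can therefore be followed over time, but its size cannot be compared with the host's level. Per cell, the median sum was 157 TPM at 0 h and 5217 at 72 h, and the median number of pieces above 0 was 35 and 232. *Kcnq5* held 226 pieces between 3.83 and 362.5 kb, with sums of 59.9, 81.6, 144.3, 1420 and 3085 TPM, and a median of 27 pieces above 0 in a cell at 0 h and 222 at 72 h. The increase therefore came with pieces spread over the intron and was seen in most cells. In *Tenm4* the 73 pieces fell with the gene, from 499 to 9.42 TPM, and from 100% of cells above 0 to 60.4%. In *Magi1* the 72 pieces fell from 145.7 to 64.8 TPM.

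In most hosts the pieces nearer to the annotated start of the gene were higher than those farther on. Distance was taken from the outermost annotated start, and in some hosts no piece lay close to it. The first piece was at 1170 kb in *Chd1*, 813 kb in *Pde4d* and 602 kb in *Dab1*. *Gm20388* and *Fgfr2*, whose pieces may lie in introns of other genes, were kept in the counts that follow. Of 18 long genes with at least 20 pieces, the pieces nearer than the median one had the higher mean in 14 at 0 h and in 15 at 72 h, and the rank correlation of distance and level over the pieces was below 0 in 15. As a description over pieces that share the same libraries, it was -0.73 in *Kcnq5* (226 pieces), -0.69 in *Zbtb20* (85), -0.68 in *Magi1* (72), -0.60 in *Tenm4* (73), -0.50 in *Immp2l* (106) and -0.35 in *Arhgap6* (235). In *Kcnq5* at 72 h nearer pieces had a mean of 18.6 TPM and farther ones of 8.70. In *Arhgap6* these means were 27.4 and 19.2 TPM, in *Magi1* at 0 h 2.59 and 1.46 TPM, and in *Tenm4* at 0 h 9.56 and 4.19 TPM. *Pde4d*, *Gm20388* and *Lpp* did not show this order, with rank correlations of 0.15, 0.18 and 0.21. The pieces were assembled from the reads, so that their number and ends follow the coverage.

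**Figure D5:**
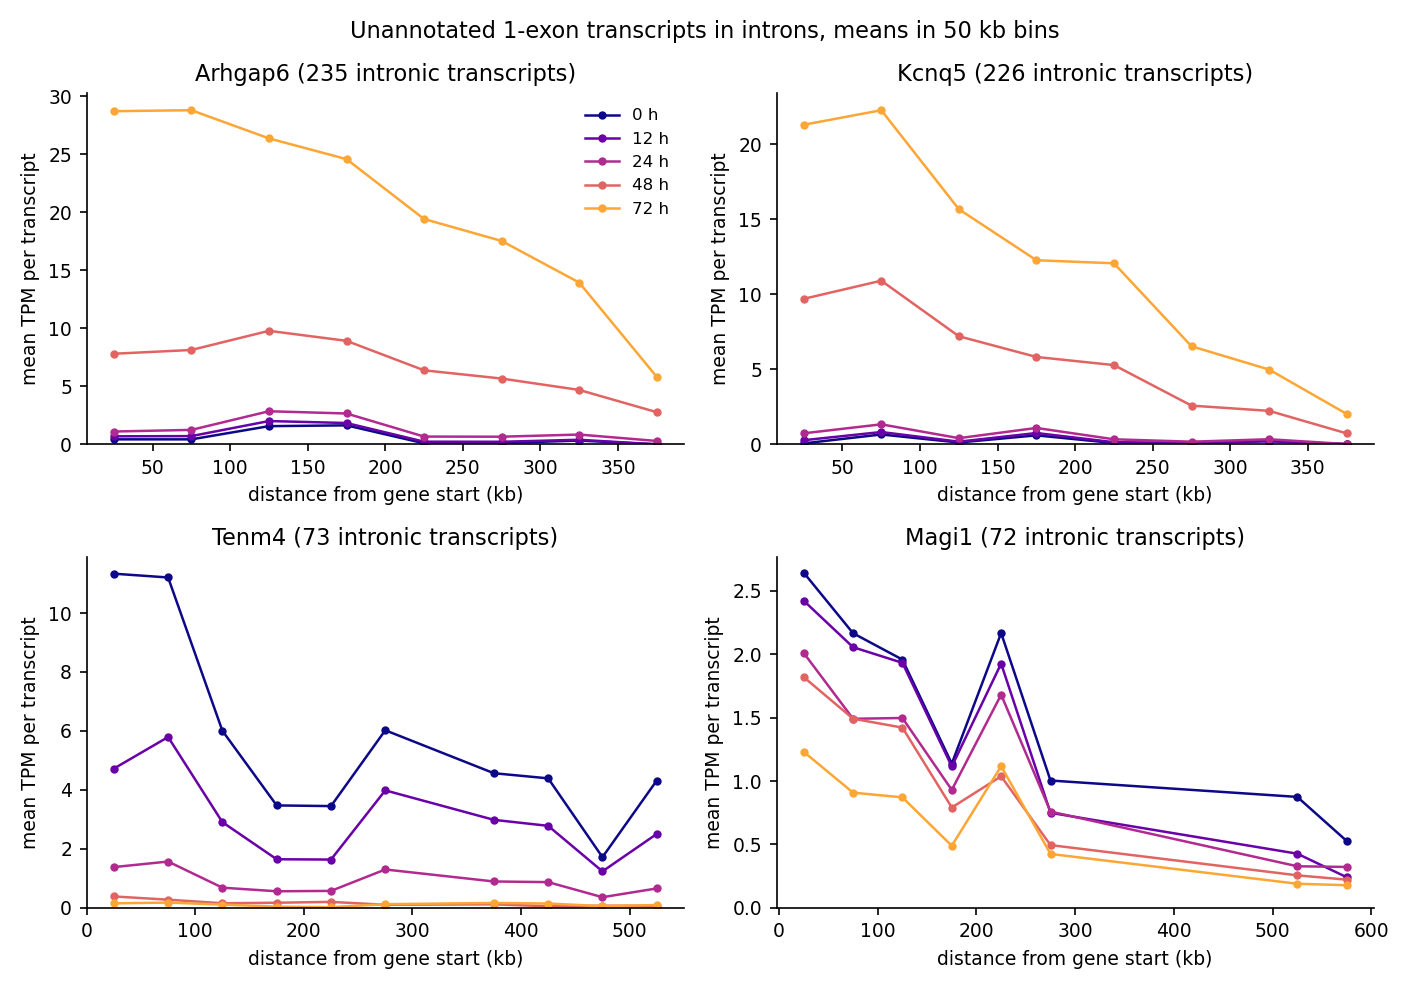
Mean TPM of unannotated 1-exon transcripts in introns, in bins of 50 kb, against distance from the start of the gene in kb, for *Arhgap6*, *Kcnq5*, *Tenm4* and *Magi1*, with 1 line per time. Each point averages the pieces of a bin and the cells of a time. Levels decline along *Arhgap6* and *Kcnq5* at 72 h, *Tenm4* is highest at 0 h and near 0 from 48 h, and *Magi1* falls with distance apart from a renewed rise between 200 and 250 kb.

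The unannotated transcripts inside a long gene were set against the host's own transcripts. Of 46 hosts with a mean of at least 1 TPM in both, 37 had the same sign of change between 0 h and 72 h, 9 were 2-fold higher in both, 7 were 2-fold lower in both and 2 were 2-fold opposite. In 9 the host passed 2-fold and the inside did not, and in 5 the inside did and the host did not. Hosts outside the long genes were not compared. *Pde4d* is the clearest of the opposite cases. Its transcripts went from 8.59 TPM at 0 h to 21.4 TPM at 72 h, while the unannotated transcripts inside it fell from 205.0 to 14.5 TPM. The 85 intronic pieces of *Pde4d* lie 813 to 1197 kb from its start, and the isoforms that span 500 kb held 23.5% of its TPM at 0 h and 1.72% at 72 h.

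Phases of the cell cycle were compared in untreated ES cells. Of 75 long genes counted, 16 differed by at least 1.5-fold between any pair of phases (10.1% of all genes), with 1 collection of cells per phase and no test. Against G1, 7 were higher in S phase (3.95% of all genes) and 3 lower (1.76%), and 10 were higher in G2/M (3.75%) and 1 lower (0.917%). *Tenm4* was 17.1, 27.8 and 36.1 TPM in G1, S and G2/M. *Exoc4* (57.6, 89.2 and 90.1 TPM), *St6galnac3*, a sialyltransferase (9.28, 16.4 and 16.0 TPM) and *Zbtb20* were higher in S and in G2/M than in G1, while *Vps13b*, *Diaph2* and *Ank2* passed 1.5-fold in S only. *Nrg1* was lower after G1, at 2.09, 0.98 and 0.99 TPM. *Sox6*, *Sox5*, *Ptprd* and *Slc7a11* were higher in G2/M than in S (2.96% of all genes were), with *Sox6* at 5.12, 3.00 and 8.37 TPM. No long gene was lower in G2/M than in S by 1.5-fold (1.56% of all genes). *Magi1* was 15.5, 18.4 and 17.1 TPM. Single cells varied widely, with an SD over cells of 8.35 TPM in G1 for *Sox6* and 11.9 TPM for *Tenm4*.

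The C1 chip and the plates and time course can be set side by side. On the C1 chip, 22 of 81 long genes were 2-fold higher in PrE cells (17.3% of all genes) and 18 lower (12.2%). *Nrg1* was 6.603 TPM in ES and 62.9 TPM in PrE cells, *Arhgap6* 0.41 and 15.1, *Fgfr2* 1.41 and 26.2, *Tenm4* 35.03 and 1.42 and *Magi1* 19.2 and 7.65. Of 72 long genes counted in all 3 comparisons, 19 were at least 2-fold higher in PrE cells in each (26.4%, against 11.2% of all genes) and 10 lower in each (13.9%, against 7.16%). The 10 were *Tenm4*, *Adarb2*, *Enox1*, *Foxp1*, *Elmo1*, *Dmd*, *Nav2*, *Adgrv1*, *Tenm3* and *Magi1*. The 3 sets of ES cells share no library, but they share the cell line. Each comparison took genes by their mean over its groups, so a gene could enter through its high group alone. As on the plates, this favoured genes that differ. The C1 and joint shares were not counted again for genes with at least 1 TPM in both types.

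*Magi1* was set against the other long genes over 16 points (5 times, 3 phases and 8 plate means). Its log2 levels were most like those of *Tenm4* (Pearson's r 0.95), *Foxp1* (0.95), *Tenm3* (0.95), *Adarb2* (0.93) and *Nav2* (0.92). The points fall into ES and PrE cells, so that any gene which falls from ES to PrE will have a high r.

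Purified ES RNA showed how the library method bears on long genes. In such bulk RNA, fewer cells of a type and less RNA per cell cannot be told apart, but here both methods read ES RNA. With edgeR's quasi-likelihood test, 27 of 80 long genes were higher in rdRNA-seq than in paRNA-seq (33.8%, against 23.7% of all genes) and 13 lower (16.3%, against 26%), with a median log2 difference of 0.20 (0.006 for all genes). This split depended on the scaling. With library size in place of TMM factors 11 were higher and 27 lower, and 1398 and 7648 of all genes, since the median of all genes shifted to -0.31. Relative to other genes, the following were higher in rdRNA-seq. *Foxp2* held counts of 15, 16 and 11 in rdRNA-seq and 6, 7 and 2 in paRNA-seq (log2 difference 2.04 ± 0.43). *Cdk14*, a cyclin-dependent kinase, held 44, 34 and 29 against 20, 18 and 28 (1.27 ± 0.26). *Pde4d* held 224, 214 and 211 against 183, 170 and 181 (0.86 ± 0.07). *Adgrb3*, *Dpp10*, *Magi2*, *Immp2l* and *Mdga2* were also higher, by 0.92 to 1.63, mostly at counts under 50. The call of *Mdga2* was lost with DESeq2 (adjusted p = 0.17), glmTreat (0.18), library size scaling (0.11) and no filter (0.11), and without each single library other than rdRNA-seq library 2. The rdRNA-seq libraries summed to 7394756 to 7502097 and the paRNA-seq libraries to 8946419 to 8962533. Counts on long genes were 0.186% to 0.199% of the total in rdRNA-seq and 0.238% to 0.240% in paRNA-seq. As a share of all counts, long genes were thus lower in rdRNA-seq, the opposite side to the split of calls.

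Several of the most abundant long genes of ES cells lay on the other side. *Etl4* held counts of 688, 629 and 681 in rdRNA-seq and 1709, 1628 and 1674 in paRNA-seq (log2 difference -0.75 ± 0.04, adjusted p = 4e-08, edgeR). *Tenm4* held 551, 515 and 584 against 1323, 1362 and 1288 (-0.69 ± 0.04, adjusted p = 1.2e-07, edgeR). *Nav2*, *Tenm3*, *Frmd4a*, *Auts2*, *Adarb2* and *Magi1* were lower by 0.68, 0.68, 0.65, 0.43, 0.36 and 0.28 in absolute log2 difference. With DESeq2 the calls of *Auts2* (adjusted p = 0.075), *Adarb2* (0.16) and *Magi1* (0.12) were lost, and that of *Magi1* also without rdRNA-seq library 1 (0.061, edgeR) and that of *Adarb2* without paRNA-seq library 1 or 3 or rdRNA-seq library 2 (0.093, 0.063 and 0.098, edgeR). For *Tenm4* the annotated transcripts were higher in paRNA-seq while the intronic pieces had a higher sum in rdRNA-seq. Nothing says that the 3 libraries of a method came from separate cultures, so their spread may be technical.

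From 10 pg of the same kind of RNA, RamDA-seq read some long genes that SMART-Seq v4 hardly read. With edgeR's quasi-likelihood test, 8 of 62 long genes were higher in RamDA-seq (12.9%, against 7.42% of all genes) and 0 were lower (6.62% of all genes), with 1 lower at an unadjusted p under 0.05, 1 lower with DESeq2 and 1 lower with library size scaling, which shifts the median of all genes from 0.12 to -0.54. *Tenm4* held counts of 1142, 702 and 1016 in the 3 RamDA-seq libraries and 160, 389, 75 and 284 in the 4 SMART-Seq v4 libraries (log2 difference 3.35 ± 0.56, adjusted p = 0.0096, edgeR). *Adarb2* held 410, 417 and 455 against 94, 125, 76 and 89 (3.43 ± 0.42, adjusted p = 0.0027, edgeR), and *Etl4* 920, 1535 and 1525 against 29, 301, 376 and 419. *Tenm3* held 314, 229 and 144 against 0, 0, 0 and 2, *Zmat4* 57, 144 and 101 against 0, 0, 0 and 1, and *Zbtb20* 77, 66 and 24 against 0, 0, 2 and 2. *Nrg1* (31, 19 and 7) and *Tmem132d* (13, 7 and 20) were at 0 in all SMART-Seq v4 libraries. *Magi1* held 183, 116 and 72 against 0, 78, 49 and 0 and did not pass the test. *Immp2l* lay the other way, with 13, 14 and 14 against 278, 238, 194 and 395 (log2 difference -3.05 ± 0.83). It did not pass the test either (adjusted p = 0.051, edgeR). All 7 libraries were made from diluted RNA of 1 pool, which leaves technical spread only. The calls were few and fragile, as leaving out RamDA-seq library 1, 2 or 3 left 1, 2 or 3 of them in the test, and leaving out SMART-Seq v4 library 1 or 2 gave 13 or 11. The counts on long genes were 0.201% to 0.229% of the total with RamDA-seq, and with SMART-Seq v4 0.138% to 0.161%.

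Promoters of the long genes were searched for the motif of GATA factors, since *Gata6* is the factor switched on in these cells. The motifs searched were AGATAA and TGATAA and also AGATAG and TGATAG on both strands, in windows of 250 bases before to 50 bases after each RefSeq start on GRCm38.p6. Of 267 windows of 164 long genes with a match in RefSeq, 63 (23.6%) held a motif, against 29.8% of all 32851 windows. By gene, 50 of 164 (30.5%) had one, against 33% of all genes. Windows of long genes that rose on the plates held one in 12 of 61 cases (19.7%), those of genes that fell in 8 of 40 and those of genes that did not pass the test in 7 of 15 (46.7%). A motif near the start was thus not commoner in long genes that rose. The 250 bases before the start are shown for *Sema6d*, a gene that rose, and *Tenm3*, a gene that fell, each with 1 motif in capitals on its strand or as its reverse complement.
*Sema6d*, chr2:124653331-124653580, plus strand: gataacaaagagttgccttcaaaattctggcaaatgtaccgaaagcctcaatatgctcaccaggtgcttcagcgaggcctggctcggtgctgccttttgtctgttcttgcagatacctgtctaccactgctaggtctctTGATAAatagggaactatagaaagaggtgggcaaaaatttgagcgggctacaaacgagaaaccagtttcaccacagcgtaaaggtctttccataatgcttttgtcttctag
*Tenm3*, chr8:48674691-48674940, minus strand: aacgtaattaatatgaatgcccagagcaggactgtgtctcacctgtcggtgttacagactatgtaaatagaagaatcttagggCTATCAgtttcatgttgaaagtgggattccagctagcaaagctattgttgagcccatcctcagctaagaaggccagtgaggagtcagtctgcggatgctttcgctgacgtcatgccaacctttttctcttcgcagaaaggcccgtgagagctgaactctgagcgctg
The motif of *Sema6d* begins 111 bases before the start and that of *Tenm3* 167 bases before it. A match says only that these letters are there, and no match draws nothing about the factor.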

How the data were processed

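Per the labels and the study's methods, the authors trimmed the reads and estimated transcript levels with Sailfish as unstranded libraries on GENCODE vM9 or on models merged with transcripts that Cufflinks 2.2.1 assembled from a HISAT2 2.0.1 mapping to mm10. The single-cell files were deposited as TPM and the files of purified RNA as estimated counts from equal numbers of reads per library, which were rounded here to whole numbers. The plates were made with an advanced version of RamDA-seq, unlike the time course. Transcript values were summed per gene. Spans were read from the merged models, and 16 columns of other library methods were not used.

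Means over cells were taken as log2(TPM + 1) for genes with a mean of at least 1 TPM. The 8 plate means were compared with limma 3.58.1 and the purified RNA with the quasi-likelihood test of edgeR 4.0.16, with DESeq2 1.42.0 as an alternative and Benjamini-Hochberg adjustment over all genes. Time, phase and C1 groups had 1 collection each and were compared by fold only (2-fold, and 1.5-fold for phases). The alternatives tried covered filter, pseudocount, summary over cells, gene models, isoforms, scaling, span and leaving out plates or libraries. The tests across many genes were tested on simulated data first.

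The labels place ES and PrE cells on the same plate, so plates pair. Deviations of the same plate correlated at 0.066, 0.032, 0.083 and 0.058, each the highest of its own. The plate as a block is given where it changed a call.

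The genes named were the 12 with the largest rise and the 12 with the largest fall on the plates with no overlap, the 8 highest in the time course, the 8 longest, *Magi1* because the study names it, the largest differences in the other comparisons, examples from the lists and those next to the threshold of 500 kb. The members and lists were chosen with earlier results of these data known. Cell counts limit the precision of the shares of cells, and TPM hold no depth.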

Additional observations from a re-analysis of the deposited data

Results flagged for a closer look

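In 14 of 166 pairs of a long gene and a cell type, 1 plate mean stood apart from the other 3, and chance gives about 8 at 1 in 20. In 6 of them 1 cell held at least 50% of the plate's TPM: *A830018L16Rik* in PrE cells of plate B1 (226.1 TPM, others 0.207 to 0.247, 99.9% in 1 cell), *Pde4d* in PrE cells of plate B2 (373.5 TPM, 86.1%), *Lpp* in ES cells of plate B2 (18.6 TPM, 83.1%), *Exoc4* in PrE cells of plate B1 (352.5 TPM, 82.5%), *Ryr2* in PrE cells of plate E1 (25.4 TPM, 50.1%) and *Zmat4* in PrE cells of plate B1 (0.737 TPM, others 0.0508 to 0.128, 61.6%). The others were *Elmo1* in PrE cells of plate B2 (0.594 TPM), *Ptprk* (5.92), *Dab1* (13.1) and *Celf2* (13.6) in PrE cells of plate E1, *Thsd7b* (3.52) and *Frmd4a* (124.9) in PrE cells of plate B1, *Csmd3* in PrE cells of plate E2 (1.80) and *Fgfr2* in ES cells of plate E2 (1.86).

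Some long genes went one way on the plates and the other way elsewhere, and these differences were not tested. The log2 change of *Adgrl3* was 0.12 on the C1 chip and -0.32 on the plates, and that of *Ntrk3* 0.0201 and -0.30. *Adgrb3* was at 0.0104 in the time course and 0.35 on the C1 chip and at -0.12 on the plates. *Vps13b* was at 0.24 in the time course and -0.12 on the plates, and *Rora* at -0.0340 and 0.60. *Chd1* was at -0.0064 in the time course, -0.0069 on the C1 chip and 0.11 on the plates.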

How the results depend on the processing

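Among the genes followed 1 by 1 through the plate and purified RNA fits, none reversed its direction under the alternatives run. Single genes were not followed in this way for the time course, phases and C1 chip. By isoforms of 500 kb only, *Frmd4a* and *Pde4d* fell over the time course where the whole genes rose. The split between rdRNA-seq and paRNA-seq turned with library size scaling (11 higher and 27 lower). On the plates 67 long genes were called, and 60 to 71 when plates or plate means were left out in turn, with 59 of the 67 called in every such fit. *Lpp*, *Ptprd*, *B3galt1*, *Lrba* and *Galntl6* lost their call in several of these fits, and *Cdkal1*, *Pard3* and *Sox6* without plate E2. The count was 39 with a mean of at least 5 TPM, 103 with no filter, 16 for spans of at least 1000000 bases and 105 for spans of at least 400000 bases. With the plate as a replicate block 67 were called, and apart from *Ptprd* and *Lpp* (lost) and *Diaph2* and *Dock1* (gained, adjusted p = 0.0059 and 0.034, limma) no call changed. In the time course 42 passed 2-fold, 22 with a mean of at least 5 TPM and 18 by isoforms of 500 kb only. On the C1 chip 40 did, and 26 with a mean of at least 5 TPM. Between rdRNA-seq and paRNA-seq 40 were called, 25 with DESeq2, 13 with edgeR's glmTreat and 33 to 38 with 1 library left out. Between RamDA-seq and SMART-Seq v4 8 were called, 23 with DESeq2, 5 with no filter and 1 to 13 with 1 library left out. In these libraries same numbers did not mark pairs (r from -0.027 to 0.021), and with the number as a replicate block 37 and 0 were called. The median share of the change reached at 24 h, 36.2%, was 64.3% at a mean of at least 5 TPM and 15.8% by isoforms of 500 kb only. The alternatives for that share, plates E1 and E2 only, the log2 mean on the C1 chip, leaving out genes with shared exons and the count of genes with 1 TPM in both types were chosen after seeing the data. The cause of these shifts was not tested. Few cells per plate and counts under 50 limit the low genes.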
